A study of Mus musculus with 6 samples.

Results

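Cytosolic heat shock chaperones and their cochaperones were followed in 22Rv1, a human prostate cancer cell line, before and after it acquired resistance to BL-B01D1, a bispecific antibody-drug conjugate that binds EGFR and HER3. The set was fixed by gene symbol and comprised 38 symbols, which matched 39 of the 58735 gene entries in the count table because HSPA14 is listed under 2 identifiers. RNA-Seq covered 3 libraries of the vehicle-treated parental line and 3 of the 22Rv1 BL-B01D1_R subline, which is labelled as treated with BL-B01D1 and had been raised in stepwise higher doses of it. Both groups share the 22Rv1 background. The subline came from a single selection, and neither separate cultures for the libraries nor the presence of drug at harvest is given in the sources used here, so p-values measure the spread between these libraries only. The sample labels name mouse as the organism, whereas every gene identifier of the set is human and the reads were mapped to the human build hg38.

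Heat shock proteins of the HSP70 family bind exposed hydrophobic stretches of client proteins in cycles of ATP hydrolysis. J-domain proteins deliver clients and start hydrolysis, whereas HSP110 and BAG proteins release the nucleotide. STIP1 hands clients on to HSP90, whose own cochaperones time its ATPase cycle or bring in particular clients, among them kinases and steroid receptors. Heat shock factor 1, encoded by HSF1, drives the inducible members when unfolded proteins accumulate.

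Total counts ranged from 13821639 to 17251491 per library, and edgeR kept 17142 genes for the test. ABCG2, the drug efflux pump that the study followed in this subline, had 3.31 to 4.76 CPM (counts per 1000000 of the scaled library size) in parental libraries and 433 to 443 CPM in resistant libraries. Luminal prostate markers were present in both groups, including KRT8 at 509 to 547 CPM and HOXB13 at 304 to 442 CPM over all 6 libraries, while KLK3 was low at 2.67 ± 0.577 CPM in parental and 4.96 ± 1.24 CPM in resistant cells (SD, n = 3, log2 fold change 0.91, FDR 6.06e-04 in edgeR's test). Of 15 markers of stromal, immune, endothelial, basal and neuroendocrine cells, 10 were too low to test, with at most 5 counts in any library and none at all for CD3E and KRT5. The summed level of all 15 markers was 247 to 264 CPM in parental and 149 to 161 CPM in resistant libraries. Of this sum, the neuroendocrine marker CHGA fell from 39.4 to 8.18 CPM (log2 fold change −2.26, edgeR FDR 2.49e-24) and the stromal marker LUM from 96.0 to 28.8 CPM (log2 fold change −1.74, edgeR FDR 1.11e-26), while SYP, also neuroendocrine, did not pass the test (log2 fold change 0.0406, edgeR FDR 0.531). Transcripts of the mitochondrial genome took 4.19% to 4.21% of counts in parental and 5.10% to 5.35% in resistant libraries, and the part of these shifts in the results below was not tested.

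All 39 chaperone entries were expressed well above the counting floor, with between 146 and 31603 counts in any library. Together they took 0.850% to 0.859% of all counts in parental libraries and 0.855% to 0.859% in resistant libraries. The summed share of chaperone transcripts therefore overlapped between the groups.

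In resistant cells, 7 chaperone entries were higher and 4 were lower at an FDR of less than 0.05 in edgeR's quasi-likelihood test. This is 17.9% and 10.3% of the set, against 17.1% and 18.4% of all 17142 genes tested. In either direction the share was 28.2%, against 35.5% of all genes and 43.6% of the 10376 genes whose mean CPM was at least that of the least abundant member (21.0% higher and 22.6% lower), a background chosen after the values were seen. No entry passed the study's full rule, which adds a change of more than 2-fold and which 2.53% of all genes met as higher and 2.84% as lower (1.89% in either direction among the 10376 genes). With an unadjusted p under 0.05 in place of the FDR, 0 entries changed by more than 2-fold. Limma-voom and DESeq2 also placed 0 entries past 2-fold. The 7 higher calls became 4 without resistant replicate 1 and with limma on log2(FPKM + 1), and the lower calls stayed at 4 to 6 whichever library was left out. The resistant libraries lay wholly above the parental ones in 11 entries (28.2%, against 22.1% of all genes) and wholly below them in 7 (17.9%, against 22.8%), together 46.2% against 44.8%.

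The changes were small. The median absolute log2 fold change was 0.06 over the 39 entries, 0.17 over all genes tested and 0.12 over the 10376 genes at or above the level of the least abundant member. The signed median was 0.0201 for the set and 0.00379 for all genes tested, with 21 of the 39 entries above 0. For 38 of the 39 entries the 95% interval of the change lay inside 1.5-fold in both directions, a bound chosen after the values were seen. This held for 63.6% of all genes and for 91.3% of the genes at or above the level of the least abundant member. The exception was HSPA13. Only HSPA13, HSPB1, HSPB8 and CHORDC1 moved by more than 0.25 on the log2 scale, which is 10.3% of the set and compares with 36.6% of all genes and 22.0% of those at or above that level. The size of 0.25 was also chosen after the values were seen, and HSPH1 lay just under it at 0.249. Over the alternatives HSPH1 ranged from 0.226 to 0.258 and CHORDC1 from 0.17 to 0.38, so both can cross this size.

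**Figure D1:**
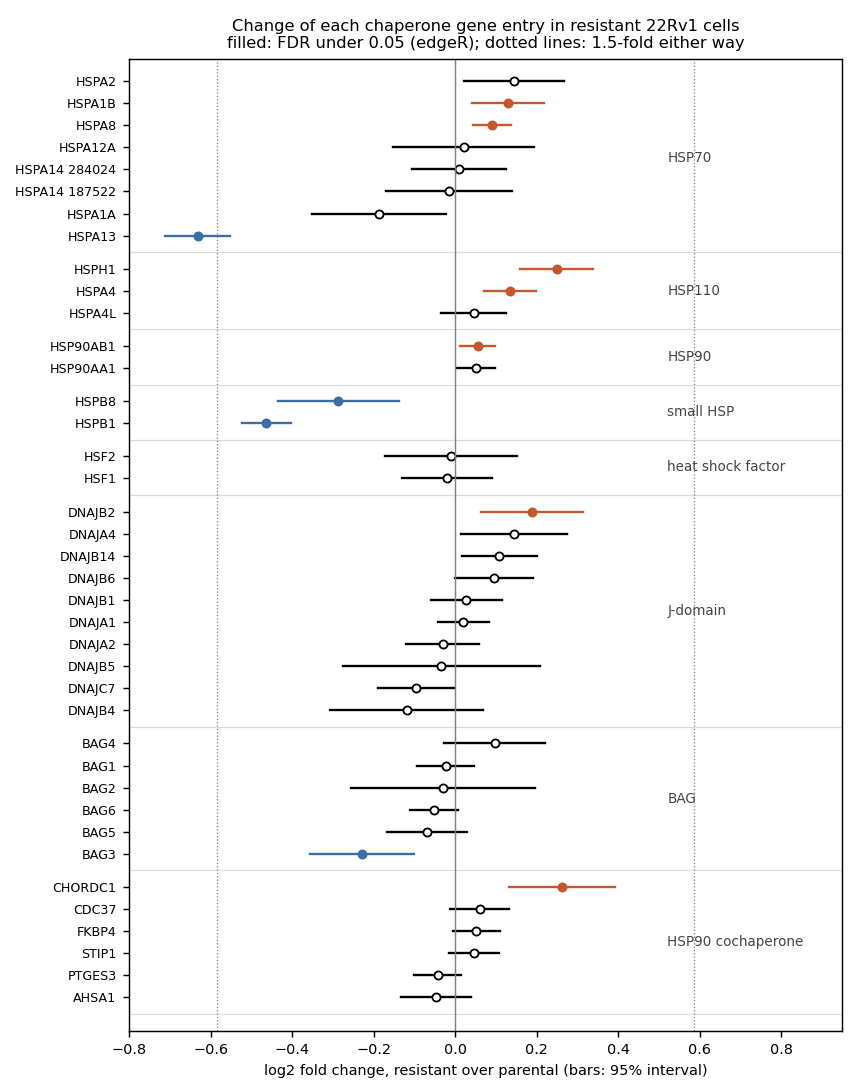
Log2 fold change of each of the 39 chaperone entries (resistant over parental, x axis) with its 95% interval, arranged by role. Filled points passed an FDR of 0.05 in edgeR's test, orange for higher and blue for lower, and HSPA13 is the entry whose interval crosses the dotted line at 1.5-fold.

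**Figure D2:**
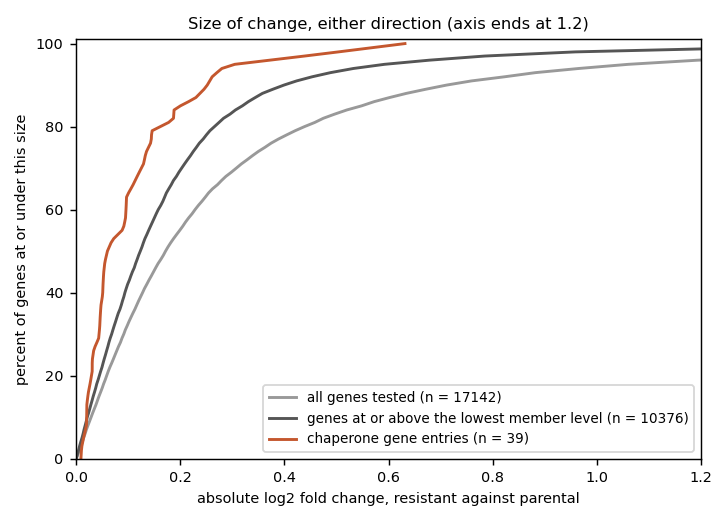
Percent of genes (y axis) whose absolute log2 fold change is at or under the size on the x axis, drawn through interpolated percentiles. The curve of the 39 chaperone entries, with a median of 0.06, rises ahead of those of the 10376 genes of like or higher level (median 0.12) and of all 17142 genes tested (median 0.17).

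Levels between genes were compared in FPKM, which divides CPM by the gene length in kilobases listed by the authors. The most abundant member was HSP90AB1, the constitutive HSP90 isoform, at 609 ± 4.42 FPKM in parental and 633 ± 6.73 FPKM in resistant cells (SD, n = 3 for each). HSPA8, the constitutive HSP70, followed at 273 ± 5.33 and 290.2 ± 0.679 FPKM, and HSP90AA1, the stress-responsive HSP90 isoform, at 252 ± 7.17 and 261 ± 1.94 FPKM. HSPA8 and HSP90AA1 stood close to each other but kept their order in each of the 6 libraries. These 3 transcripts carried 52.1% to 52.6% of all chaperone counts in parental libraries and 53.8% to 54.2% in resistant libraries. They were also the only members among the 100 most abundant genes by FPKM, at places 33, 82 and 94 of 17142.

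HSPB1 and PTGES3 came next, at 209.6 ± 2.89 and 105 ± 1.44 FPKM in parental cells. At the other end, HSPA12A, BAG2 and DNAJB5 held the lowest places in both groups, with means between 1.71 and 2.17 FPKM, and neighbors in that order overlapped. Between places 20 and 27 of the parental order, from HSPA1A to DNAJC7, means lay between 9.06 and 10.3 FPKM and each entry's libraries overlapped those of its neighbors. Of the 39 entries, 15 were in the top 10% of all genes tested and 4 were under the median. The ratio of HSP90AB1 to HSP90AA1 was 2.42 ± 0.077 in parental and 2.43 ± 0.0242 in resistant cells (SD, n = 3), a difference smaller than the spread.

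**Figure D3:**
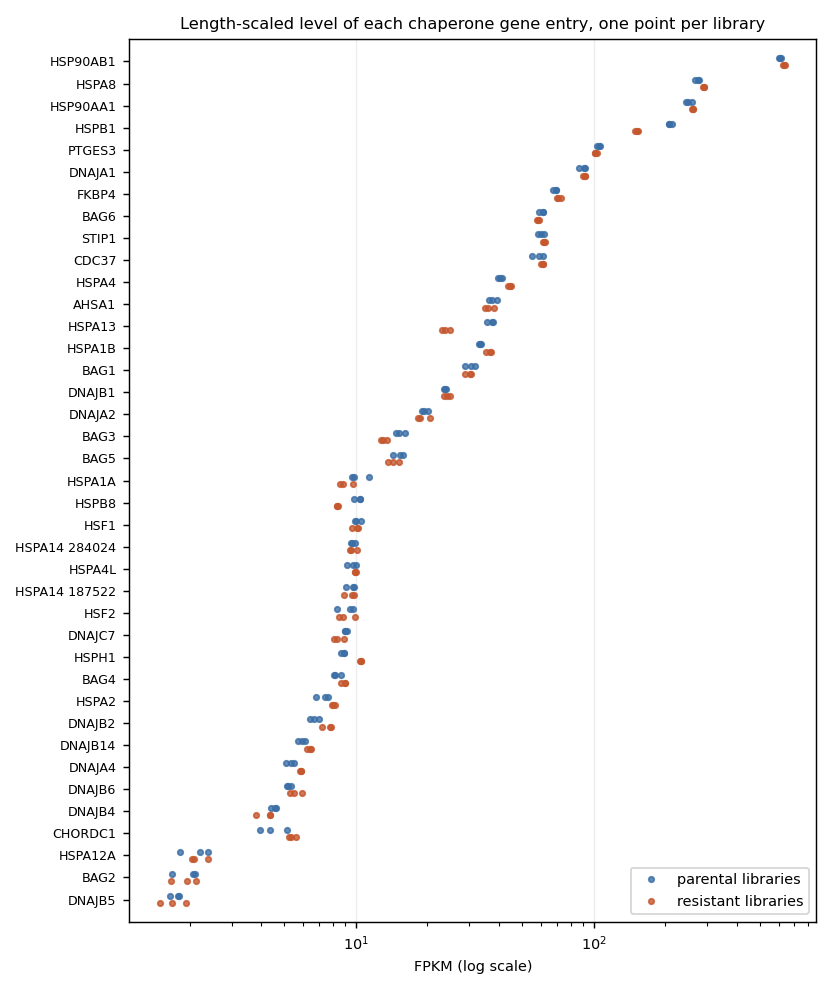
FPKM (log scale, x axis) of each chaperone entry in the 3 parental and the 3 resistant libraries, 1 point per library, ordered by the parental mean. Members span from 1.71 FPKM (DNAJB5, resistant mean) to 633 FPKM (HSP90AB1, resistant mean), and the groups stand visibly apart for HSPA13 and HSPB1.

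Among the HSP70 genes, HSPA13 fell most. HSPA13 encodes a small, microsome-associated HSP70 relative that lacks the peptide-binding domain, so it sits at the edge of a cytosolic set. In hg38 coordinates, used throughout, the gene spans 14371115 to 14383484 of chromosome 21 (reverse strand). Parental libraries had 158, 157 and 149.6 CPM and resistant libraries had 96.3, 105 and 99.4 CPM. All 3 resistant libraries were well below all parental ones. In bulk RNA, fewer expressing cells and less RNA per cell cannot be told apart. HSPA13 dropped by 35.5% (log2 fold change −0.63, SE 0.0395, FDR 4.89e-17 in edgeR's test), and its log2 fold change stayed between −0.66 and −0.60 under all 14 alternatives.

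HSPA8, on chromosome 11 (123057489 to 123063230, reverse strand), rose slightly. Its libraries had 1331, 1293 and 1342 CPM in parental cells and 1411, 1408 and 1404 CPM in resistant cells. The resistant libraries were tightly grouped just above the parental ones, a rise of 6.45% (log2 fold change 0.0902, SE 0.0227, FDR 0.0015 in edgeR's test). HSPA2, an HSP70 best known from the testis, had 39.2, 42.6 and 44.1 CPM in parental and 47.0, 45.9 and 46.1 CPM in resistant libraries, which did not overlap, but missed the threshold (log2 fold change 0.14, FDR 0.0583 in edgeR's test). It passed with limma-voom (FDR 0.0487) and without parental replicate 3 (FDR 0.0354), and its FDR reached 0.278 under another alternative. HSPA12A, an atypical and distant HSP70, and both entries of HSPA14, a ribosome-associated HSP70, had overlapping libraries and log2 fold changes between −0.0145 and 0.0204. The HSPA14 entries overlap each other on chromosome 10, and their summed level was 72.8 ± 0.0341 CPM in parental and 72.8 ± 0.803 CPM in resistant cells (SD, n = 3).

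HSPA1A and HSPA1B encode the classic heat-inducible HSP70. They lie 9.79 kb apart on the forward strand of chromosome 6, HSPA1A from 31815464 to 31817946 and HSPA1B from 31827735 to 31830255. Their sequences are nearly identical, so how reads were divided between them is uncertain. HSPA1A had 24.0, 28.1 and 24.4 CPM in parental and 24.1, 21.9 and 21.3 CPM in resistant libraries, with overlap between the groups and no call (log2 fold change −0.19, SE 0.0811, FDR 0.0697 in edgeR's test). Its FDR was 0.0379 without parental replicate 1, 0.0462 without resistant replicate 1 and 0.0482 with library size alone. Without parental replicate 2 the log2 fold change was −0.11 (FDR 0.383), the smallest of the alternatives.

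HSPA1B had 84.6, 83.0 and 83.9 CPM in parental libraries and 92.5, 88.8 and 93.7 CPM in resistant libraries. It rose by 9.38% (log2 fold change 0.13, SE 0.0433, FDR 0.0166 in edgeR's test), a call lost without parental replicate 2 (FDR 0.0604), resistant replicate 1 (FDR 0.0541) or resistant replicate 3 (FDR 0.0761). The paralogs thus had log2 fold changes of opposite sign, and the ratio of HSPA1B to HSPA1A in FPKM was 2.91 to 3.47 in parental and 3.78 to 4.33 in resistant libraries. Summed, they had 109, 111 and 108 CPM in parental and 117, 111 and 115 CPM in resistant libraries. The groups overlapped and the sum did not pass the test (log2 fold change 0.0615, SE 0.0394, FDR 0.238 in edgeR's test with the pair entered as 1 gene).

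**Figure D4:**
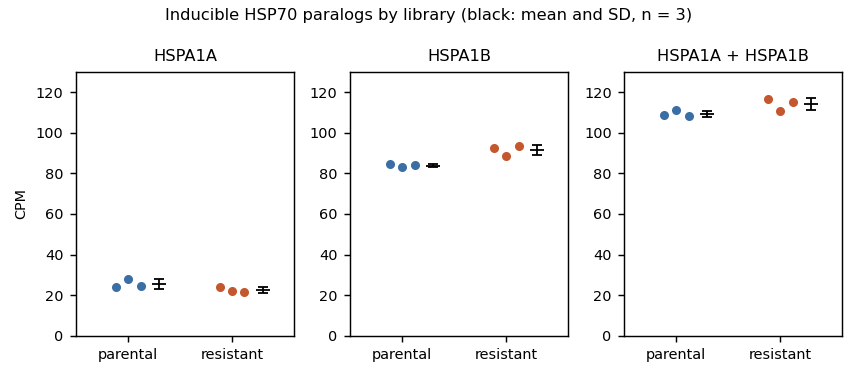
CPM of HSPA1A, HSPA1B and their sum in each library, with mean and SD (n = 3) in black. HSPA1A is lower on average in resistant cells with overlapping libraries, HSPA1B is higher without overlap, and the sum overlaps between the groups.

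The HSP110 genes encode large HSP70 relatives that act as nucleotide exchange factors. Of these, 2 of 3 were called higher (66.7%, against 17.1% of all genes), a share that rests on 3 genes. HSPH1, the stress-inducible one, had 74.8, 72.7 and 75.1 CPM in parental and 88.4, 88.4 and 87.6 CPM in resistant libraries. The libraries within each group differed by far less than the groups did. HSPH1 rose by 18.9% (log2 fold change 0.25, SE 0.0443, FDR 1.45e-05 in edgeR's test). HSPA4 had 211, 205 and 209 CPM in parental and 231, 230.3 and 225 CPM in resistant libraries, a rise of 9.72% without overlap (log2 fold change 0.13, SE 0.0318, FDR 7.98e-04 in edgeR's test). Both calls held under all 14 alternatives. HSPA4L overlapped between the groups, with a 95% interval of the log2 fold change from −0.0355 to 0.125.

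The HSP90 pair differed by less than 4% between the groups. HSP90AB1 had 1815, 1802 and 1828 CPM in parental and 1906, 1884 and 1866 CPM in resistant libraries. It was the weakest of the calls, at 3.89% higher (log2 fold change 0.055, SE 0.0215, FDR 0.0423 in edgeR's test), and the call was lost with library size alone (FDR 0.149), without a filter (FDR 0.0644), with limma on log2(FPKM + 1) (FDR 0.139) and without parental replicate 1 (FDR 0.0535), parental replicate 2 (FDR 0.126), resistant replicate 1 (FDR 0.132) or resistant replicate 2 (FDR 0.0925). HSP90AA1 had 1362, 1314 and 1288 CPM in parental and 1378, 1358 and 1370.4 CPM in resistant libraries. The groups overlapped and the gene missed the threshold (log2 fold change 0.0507, FDR 0.0898 in edgeR's test), although it passed with limma-voom (FDR 0.0285) and without parental replicate 1 (FDR 0.0114). Without parental replicate 3 its log2 fold change was 0.0334 (FDR 0.319), the smallest of the alternatives. The 95% interval of its log2 fold change ran from 0.0033 to 0.0981.

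Both small heat shock proteins of the set fell (2 of 2 called lower, against 18.4% of all genes), a share that rests on 2 genes. HSPB1, also known as HSP27, holds unfolded proteins in large oligomers without using ATP and ranked just after the HSP90 genes and HSPA8 in level. It lies on the forward strand of chromosome 7 from 76302544 to 76304295. HSPB1 had 348, 340.2 and 339 CPM in parental libraries and 245, 252 and 248 CPM in resistant libraries. Every resistant library lay far under every parental one, and HSPB1 dropped by 27.5% (log2 fold change −0.46, SE 0.0295, FDR 9.06e-17 in edgeR's test). HSPB8, on chromosome 12 (119178642 to 119221131, forward strand), had 29.8, 29.7 and 28.2 CPM in parental and 23.9, 24.1 and 23.9 CPM in resistant libraries. The groups did not overlap, and HSPB8 dropped by 18.0% (log2 fold change −0.29, SE 0.0732, FDR 0.00174 in edgeR's test).

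BAG3, which partners HSPB8 in directing clients to autophagy, also fell. This gene on chromosome 10 (119651370 to 119677819, forward strand) had 41.8, 40.7 and 44.3 CPM in parental and 37.1, 35.7 and 35.2 CPM in resistant libraries. Again no resistant library reached the lowest parental one, and BAG3 dropped by 14.7% (log2 fold change −0.23, SE 0.0632, FDR 0.00375 in edgeR's test). The calls of HSPB1, HSPB8 and BAG3 held under all 14 alternatives. None of the other 5 BAG genes passed the test, and all 5 overlapped between the groups. Thus 16.7% of the 6 BAG genes were called lower, against 18.4% of all genes. They were BAG1, BAG2, which inhibits the chaperone-bound ubiquitin ligase CHIP, BAG4, BAG5 and BAG6, which serves the targeting of tail-anchored membrane proteins. Their log2 fold changes lay between −0.0691 (BAG5) and 0.0967 (BAG4).

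**Figure D5:**
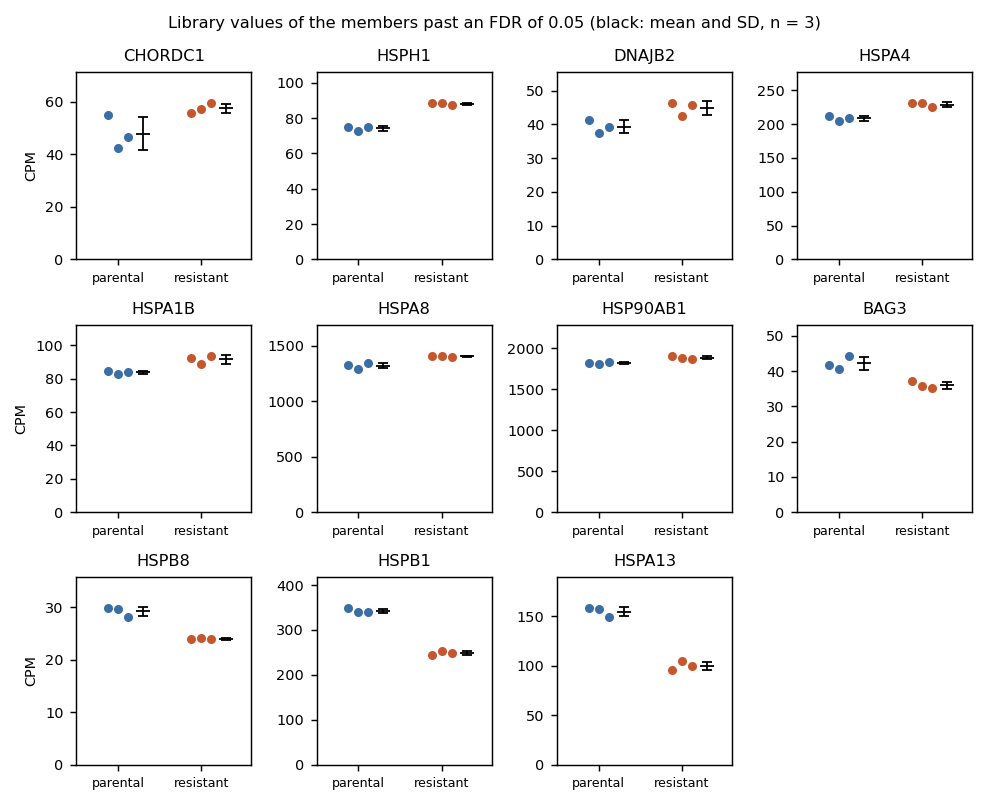
CPM in each library for the 11 chaperone entries past an FDR of 0.05, ordered from the highest to the lowest log2 fold change, with mean and SD (n = 3) in black. Axes start at 0, so that the rises of HSPA8 (6.45%) and HSP90AB1 (3.89%) appear as small steps beside the drops of HSPB1 (27.5%) and HSPA13 (35.5%).

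The transcription factors of the pathway did not pass the test. HSF1 had 52.4, 53.3 and 55.8 CPM in parental and 54.1, 51.3 and 53.7 CPM in resistant libraries. HSF2, a second factor that binds the same elements, had 26.2, 22.5 and 25.5 CPM in parental and 26.7, 23.0 and 23.8 CPM in resistant libraries. The groups overlapped in both genes. The 95% interval of the log2 fold change was −0.13 to 0.0912 for HSF1 and −0.173 to 0.153 for HSF2 (edgeR FDR 0.822 and 0.94). Neither passed under any of the 14 alternatives, limma-voom and DESeq2 included, nor had an unadjusted p under 0.05. DNAJB1, a J-domain gene often used as a readout of HSF1, had 86.6, 87.2 and 88.0 CPM in parental and 91.3, 86.3 and 89.0 CPM in resistant libraries, which overlapped (log2 fold change 0.0272, edgeR FDR 0.675). Further heat-inducible genes were called in both directions. HSPH1 (log2 fold change 0.25) and CHORDC1 (0.26) were higher, and HSPD1 (−0.41) and HSPE1 (−0.405) were lower. HSF1 activity was not tested.

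Of the 10 J-domain genes, DNAJB2 alone passed the test (10% called higher, against 17.1% of all genes). DNAJB2, a J-domain protein with ubiquitin-interacting motifs, had 41.2, 37.6 and 39.1 CPM in parental and 46.3, 42.4 and 45.7 CPM in resistant libraries. It rose by 13.9% (log2 fold change 0.19, SE 0.0622, FDR 0.0155 in edgeR's test). The call was lost without parental replicate 2 (FDR 0.0928), resistant replicate 1 (FDR 0.0795) or resistant replicate 3 (FDR 0.0551) and with limma on log2(FPKM + 1) (FDR 0.0549). DNAJA4 and DNAJB14, the latter anchored in the endoplasmic reticulum membrane with its J-domain in the cytosol, were without overlap between the groups at log2 fold changes of 0.14 and 0.11 but missed the threshold (edgeR FDR 0.0775 and 0.0588). DNAJB14 passed without parental replicate 2 (FDR 0.0488) and with at least 10 counts in every library (FDR 0.0474), and its FDR reached 0.207 under another alternative.

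DNAJB4 and DNAJC7, which binds both HSP70 and HSP90, lay lower without overlap at log2 fold changes of −0.12 and −0.0958 and also missed it (edgeR FDR 0.347 and 0.102). DNAJC7 passed without resistant replicate 1 (FDR 0.0382), and DNAJB6, which suppresses aggregation of polyglutamine proteins, passed without resistant replicate 3 (FDR 0.044 against 0.12 with all libraries), whereas without resistant replicate 2 its log2 fold change went from 0.0946 to 0.0479 (FDR 0.542). The FDR of DNAJC7 ranged up to 0.363 over the alternatives. Without resistant replicate 3 the log2 fold change of DNAJB4 was −0.0542 (FDR 0.75). DNAJA1 and DNAJA2, the main class A partners of HSPA8, and DNAJB5 overlapped between the groups, with log2 fold changes between −0.0338 and 0.0201.

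Among 6 HSP90 cochaperones, CHORDC1 rose and the others did not pass the test (16.7% called higher, against 17.1% of all genes). CHORDC1, a zinc-binding protein that attaches to HSP90 and is induced by heat, had 54.8, 42.2 and 46.5 CPM in parental and 55.8, 57.1 and 59.4 CPM in resistant libraries. The parental libraries were widely spread and parental replicate 1 reached nearly the lowest resistant library. The rise of 19.9% (log2 fold change 0.26, SE 0.0647, FDR 0.00124 in edgeR's test) ranged on the log2 scale from 0.17 without parental replicate 2 to 0.38 without parental replicate 1, and it was not called with limma on log2(FPKM + 1) (FDR 0.0824).

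STIP1, which bridges HSP70 and HSP90, AHSA1, which activates the HSP90 ATPase, and CDC37, which recruits kinases, overlapped between the groups, with log2 fold changes of 0.046, −0.0474 and 0.0599. FKBP4, an immunophilin of steroid receptor complexes, had 351, 359.5 and 359.8 CPM in parental and 367, 363 and 378 CPM in resistant libraries (log2 fold change 0.0515, edgeR FDR 0.165). PTGES3, which stabilizes the closed form of HSP90, had 361, 352 and 358 CPM in parental and 350.2, 345 and 344 CPM in resistant libraries (log2 fold change −0.043, edgeR FDR 0.251). Both were free of overlap but differed by less than 4% between the groups.

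DNAJA1 and BAG1 lie 208 kb apart on chromosome 9, and neither passed the test. BAG6 lies 163 kb from HSPA1A on chromosome 6 and was not called either (log2 fold change −0.0527, edgeR FDR 0.167). Where a member overlaps another gene entry, reads may not be separable, since whether counting used strand is not given in the sources used here. An overlapping entry held at least 10% of the member's counts for 11 of the 39 entries, among them HSF1, DNAJB1, DNAJA4 and DNAJC7. The 11 entries past the FDR threshold were not among them. Pseudogene entries named after a member held at most 1.32% of its counts, except for DNAJB5 at up to 3.24%.

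The wider chaperone network was read from lists that hold 73 further genes, of which 63 were tested. Of these 63, 10 were higher and 7 lower at an FDR of less than 0.05 in edgeR's test. Of all 17142 genes tested, 2928 (17.1%) were higher and 3153 (18.4%) lower. The median log2 fold change of the 63 genes was −0.0117. The TRiC chaperonin folds actin and tubulin. Of its 8 subunit genes, CCT6A alone passed the test (log2 fold change 0.10, SE 0.0257, edgeR FDR 0.00163). Of 6 genes for prefoldin, which feeds TRiC, PFDN5 was higher (log2 fold change 0.29, SE 0.0395, edgeR FDR 1.08e-07).

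FKBP5 had the largest change of the network. This HSP90-binding immunophilin is a textbook target gene of steroid receptors. It had 327, 329.8 and 349 CPM in parental and 617, 621 and 641 CPM in resistant libraries, far apart from each other. FKBP5 rose 1.87-fold (log2 fold change 0.90, SE 0.0286, edgeR FDR 3.19e-27), whereas its paralog FKBP4 moved by 3.63%. Among the 17 further HSP70 and HSP90 cochaperones, UNC45A was also higher (0.16), and HSPBP1 (−0.17) and PIH1D1 (−0.17) were lower. The call of HSPBP1 was lost without parental replicate 1 (FDR 0.104) or resistant replicate 2 (FDR 0.121).

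Of 17 further J-domain genes, 3 were higher and 3 lower in edgeR's test (17.6% each, against 17.1% and 18.4% of all genes). The extremes were DNAJC18 (0.38) and DNAJC30 (0.37) as higher and DNAJC6 (−0.25), an auxilin that uncoats clathrin vesicles, and DNAJC21 (−0.20) as lower. DNAJC18 had no more than 11.3 CPM in any library, and its call was lost with DESeq2 (FDR 0.061), with limma on log2(FPKM + 1) (FDR 0.0854) and without parental replicate 1 (FDR 0.119), resistant replicate 1 (FDR 0.0608) or resistant replicate 3 (FDR 0.0938).

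Among 14 further heat shock proteins and factors, 5 could be tested. HSPB6, a small heat shock protein known from muscle, was higher, in contrast with HSPB1 and HSPB8. It had 40.0, 46.6 and 49.7 CPM in parental and 57.7, 65.1 and 62.4 CPM in resistant libraries, without overlap (log2 fold change 0.45, SE 0.0629, edgeR FDR 2.06e-07). HSPA6, an HSP70 that is almost silent without stress, was not tested and had 10, 21 and 6 counts in parental and 5, 4 and 3 counts in resistant libraries. The resistant counts are near the floor of 3, so no fold is given.

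Other heat-inducible genes went both ways. HSPD1 and HSPE1, the mitochondrial chaperonin and its cochaperonin, fell to a like extent, by 24.7% and 24.5% (log2 fold changes −0.41, SE 0.0209, and −0.405, SE 0.0394, edgeR FDR 6.22e-20 and 2.76e-11). HSPE1 lies within the span listed for HSPD1, on the opposite strand, so their reads may not be fully separable. RGS2 was higher (log2 fold change 0.28, SE 0.0269, edgeR FDR 2.39e-11). Of 8 immediate-early genes, which respond within minutes to handling or serum, 3 were lower in edgeR's test (37.5%, against 18.4% of all genes). FOSB (−1.09) and EGR1 (−0.54) were the lowest of them. FOSB had no more than 4.59 CPM in any library. Its log2 fold change was −0.37 with limma on log2(FPKM + 1) (FDR 0.00638). The summed level of all 8 genes was 282 to 297 CPM in parental and 256 to 275 CPM in resistant libraries. Its part in the chaperone results was not tested.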

How the data were processed

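Per the labels' processing notes and the study's methods, the authors made the deposited raw counts per gene by mapping poly-A RNA reads to hg38 with HISAT2 2.0.5 and counting with featureCounts 1.5.0-p3. The annotation release and strand setting are not given in the sources used here. The authors list gene length in the same table as another quantity. No human sequence was at hand, so none is printed.

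Counts were filtered with filterByExpr, scaled by TMM and tested with edgeR 4.0.16 (quasi-likelihood, R 4.3.3), with Benjamini-Hochberg adjustment over 17142 genes. The standard error is the log2 fold change divided by the square root of F, and intervals use its degrees of freedom. Alternatives were limma-voom and limma on log2(FPKM + 1) (limma 3.58.1), DESeq2 1.42.0, its size factors in edgeR, library size alone, no filter on low counts, a minimum of 10 counts per library, the replicate number as a block, and each of the 6 libraries left out. On simulated counts for 16846 genes, edgeR recovered 177 of 200 genes changed 2-fold, and 132 of the 132 with a mean of at least 100 counts, with 11 false calls. The simulation gave every gene the same dispersion and held no change other than 2-fold. It therefore does not show how often changes as small as those of the members are found. Floors and counts cover counting error only.

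The members and lists were chosen with earlier results of these data known. Every member is named, and of each further list up to 2 called genes per direction. Some genes that this rule names are not reported here.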

Additional observations from a re-analysis of the deposited data

How the results depend on the processing

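The 7 higher and 4 lower calls became 4 and 4 with limma on log2(FPKM + 1), and ranged from 4 to 8 higher and from 4 to 6 lower as each library was left out. The count of higher calls was 4 without resistant replicate 1. The cause was not tested. Counts past 2-fold were 0 under all 14 alternatives. Of 546 values of single members under the alternatives, 499 kept their sign and their side of an FDR of 0.05, 15 lost the call, 11 gained it and 21 changed sign. All sign changes were in entries without a call. As each library was left out, the log2 fold change ranged from −0.0862 to 0.104 for HSPA12A, −0.0224 to 0.0300 and −0.0443 to 0.0289 for the 2 entries of HSPA14 (ENSG00000284024 and ENSG00000187522), −0.0388 to 0.00576 for HSF1, −0.0771 to 0.0358 for HSF2, −0.00516 to 0.0389 for DNAJA1, −0.0813 to 0.00522 for DNAJA2, −0.134 to 0.0539 for DNAJB5, −0.0608 to 0.0067 for BAG1 and −0.128 to 0.0611 for BAG2. With library size alone, the first HSPA14 entry had −0.00707. The replicate numbers do not mark shared material in the labels, and deviations of same-numbered libraries correlated at −0.0196 to −0.00806. With the replicate number as a block, 7 members were higher and 4 lower, 10 and 7 genes of the further lists, and HSPA1A and HSPA1B summed had a log2 fold change of 0.0613. Leaving out a library moved that sum between 0.0475 and 0.0834.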
